A study of Mus musculus with 2 samples.

Results

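The genes of G2 phase and mitosis were followed through mouse thymocytes by single-cell RNA sequencing, in which each captured mRNA molecule is counted once through its unique molecular identifier (UMI). A list of 40 such genes was made from their known roles, with earlier results of these data already known. A gene was kept when it had at least 20 UMIs in the deposited count matrix. All 40 of the 40 listed genes passed, out of 20282 genes in the matrix, of which 15594 reached 20 UMIs. The 40 genes comprised 7 for the mitotic cyclin-dependent kinase and its regulators, 5 mitotic kinases, 3 ubiquitin ligase cofactors, 6 genes of the centromere and kinetochore, 9 of the spindle, 4 of cytokinesis and 6 of chromatin and the nuclear envelope. None lay near the minimum: the lowest were Gtse1, a microtubule-associated protein of G2 and S phase, with 593 UMIs and Cdc25c, a phosphatase that activates Cdk1, with 698 UMIs, and the highest was Hmgb2, a chromatin-bending protein of dividing cells, with 147205 UMIs.

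After DNA replication, cyclin A and then cyclin B load onto Cdk1, which drives the cell into mitosis, where chromosomes condense, kinetochores capture spindle microtubules and the anaphase-promoting complex finally destroys cyclin B and securin. Most of these genes are transcribed in a wave that rises in late S phase and peaks in G2 and mitosis. In the thymus, dividing cells are found mainly among late double-negative and early double-positive (DP) thymocytes, which expand after a successful T cell receptor beta rearrangement, whereas most DP thymocytes rest while they are tested for selection.

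The study removed Cdc42, a small GTPase of the actin cytoskeleton, from the T cell lineage, and whole thymus was sequenced to learn how its loss changed gene expression. The WT group was Cdc42f/f mice, which carry loxP-flanked Cdc42 without Cre, and the KO group was their Cdc42f/f CD4Cre littermates, in which a Cre driven by the CD4 promoter deletes Cdc42 exon 2 in cells that have turned that promoter on. Both groups were 6 weeks old, and thymocytes of 5 mice per group were joined into 1 library on the 10x Genomics 3′ platform, so both groups carry the floxed allele and differ in the CD4Cre transgene. With 1 library per group there is no replicate: differences between the libraries were not tested, and every interval given is a 95% interval for counting error only, which leaves out differences among mice and between preparations.

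The WT library held 6115 cells and 29706197 UMIs and the KO library 7568 cells and 37920214 UMIs, with a median of 3192 and 3401 UMIs per cell. The cell names carry Cdc45 where the labels carry Cdc42, and 17 cell barcodes occurred in both libraries. Cdc42 itself was read at 397.7 CPM (UMIs per 1000000 UMIs) in the WT library and 356.5 CPM in the KO library, a log2 ratio of -0.16 (interval -0.19 to -0.12). Counts at the 3′ end do not see the loss of exon 2, so this level does not check the labels, and the libraries are named here by their labels. Cells were grouped by the 19 clusters deposited by the authors, of which clusters 10 to 13 held most UMIs of the G2 and mitosis genes. All 6 pan T cell markers and all 8 DP markers, among them Cd4, Cd8a and Rag1, were read in clusters 10 to 13, together with the DP list summing to 4245 CPM in WT and 3842 CPM in KO, and the 8 double-negative and gamma-delta markers at 184 and 280.5 CPM. In cluster 13, 1 of 271 cells held 1734 of the 1736 haemoglobin UMIs and another held 616 of the 619 Igkc UMIs, and whether these droplets held a second cell was not tested.

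The promoters of this gene set share known sequence elements, and they are shown first so that the levels below can be read beside them. TTTGAA is the core of the cell cycle genes homology region, bound by the repressive DREAM complex in resting cells and by MuvB with B-MYB and FOXM1 in G2, and CCAAT is the box bound by NF-Y. RefSeq promoter windows on GRCm38.p6, 250 bases before to 50 bases after a start, were found for 35 of the 40 genes in 37 windows, and those of Aurkb, Ccna2, Cdc25c, Dlgap5 and Tpx2 were not found in the table used. On either strand, TTTGAA was present in 28 of 37 windows (75.7%) against 17.9% of all 32851 windows, and CCAAT in 32 of 37 (86.5%) against 37.4%. Both motifs occurred in 25 of 37 windows (67.6%) against 6.95% of all windows, and they overlapped each other in 1 window, that of Cdca8. Of 34 windows for 30 of 40 S phase genes, 6 (17.6%) had TTTGAA, 22 (64.7%) had CCAAT and 4 (11.8%) had both. Of 55 windows for 48 of 60 other G2 and mitosis genes, 33 (60.0%) had TTTGAA, 33 (60.0%) had CCAAT and 23 (41.8%) had both. In 8 of the 37 windows of the 40 genes both lay within the last 100 bases before the start. This held for 1.06% of all windows and 16.4% of those of the 60 other genes. Those 100 bases are given 5′ to 3′ on the gene's strand for 7 of the 8, with both motifs, on either strand, in capitals, and the other window is that of Ube2c.
Top2a, chr11:99024190-99024289, minus strand: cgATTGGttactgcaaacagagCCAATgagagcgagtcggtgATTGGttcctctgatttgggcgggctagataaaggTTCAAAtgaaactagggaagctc
Cdk1, chr10:69352913-69353012, minus strand: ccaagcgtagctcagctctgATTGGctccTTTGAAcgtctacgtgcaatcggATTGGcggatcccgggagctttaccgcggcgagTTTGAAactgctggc
Cdc20, chr4:118437344-118437443, minus strand: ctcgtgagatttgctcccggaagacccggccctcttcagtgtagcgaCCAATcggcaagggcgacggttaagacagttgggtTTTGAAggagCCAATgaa
Kif11, chr19:37376282-37376381, plus strand: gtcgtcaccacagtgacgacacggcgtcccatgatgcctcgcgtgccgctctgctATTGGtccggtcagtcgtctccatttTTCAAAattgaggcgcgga
Hmgb2, chr8:57511743-57511842, plus strand: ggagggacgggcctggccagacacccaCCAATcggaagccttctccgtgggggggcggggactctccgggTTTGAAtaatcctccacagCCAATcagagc
Ckap5, chr2:91526662-91526761, plus strand: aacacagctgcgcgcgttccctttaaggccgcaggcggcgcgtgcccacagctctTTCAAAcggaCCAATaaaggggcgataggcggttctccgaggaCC
Lbr, chr1:181842402-181842501, minus strand: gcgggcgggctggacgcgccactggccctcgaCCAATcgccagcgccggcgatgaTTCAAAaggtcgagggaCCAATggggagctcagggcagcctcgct
The capitals that end the Ckap5 stretch begin a CCAAT that runs across the start. Top2a, Cdk1, Cdc20, Kif11 and Hmgb2 were among the genes read mostly in clusters 10 to 13, while Ckap5 and Lbr, with the same letters near their starts, had among the lowest shares there. A match is a description of these letters and not evidence of binding.

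Clusters 10 to 13 held 686 of 6115 WT cells (11.2%, 10.4 to 12) and 737 of 7568 KO cells (9.74%, 9.08 to 10.4). They held 33.7% and 33.6% of all UMIs, since their cells were deep, with a median of 11964 UMIs in WT and 14929 in KO against 3021 and 3261 in the other clusters. Of the UMIs of the 40 genes they held 86.5% in WT and 87.2% in KO. Summed over the 40 genes the level was highest in cluster 10, at 33520 CPM in WT and 33002 CPM in KO, and next in cluster 13, at 21880 and 24075 CPM. Cluster 12 stood at 13460 and 13764 CPM and cluster 11 at 10451 and 10343 CPM. The 2 small clusters 17 and 18 were as high as these, at 15508 and 10599 CPM in cluster 17 and 15986 and 18067 CPM in cluster 18. Cluster 8, of shallow cells with a median of 15.7% to 18.6% mitochondrial UMIs, stood at 2784 and 3386 CPM, and the remaining 12 clusters lay between 779 and 1404 CPM. These clusters were drawn by the authors from the same genes, so a level in one cluster against another is a description.

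**Figure D1:**
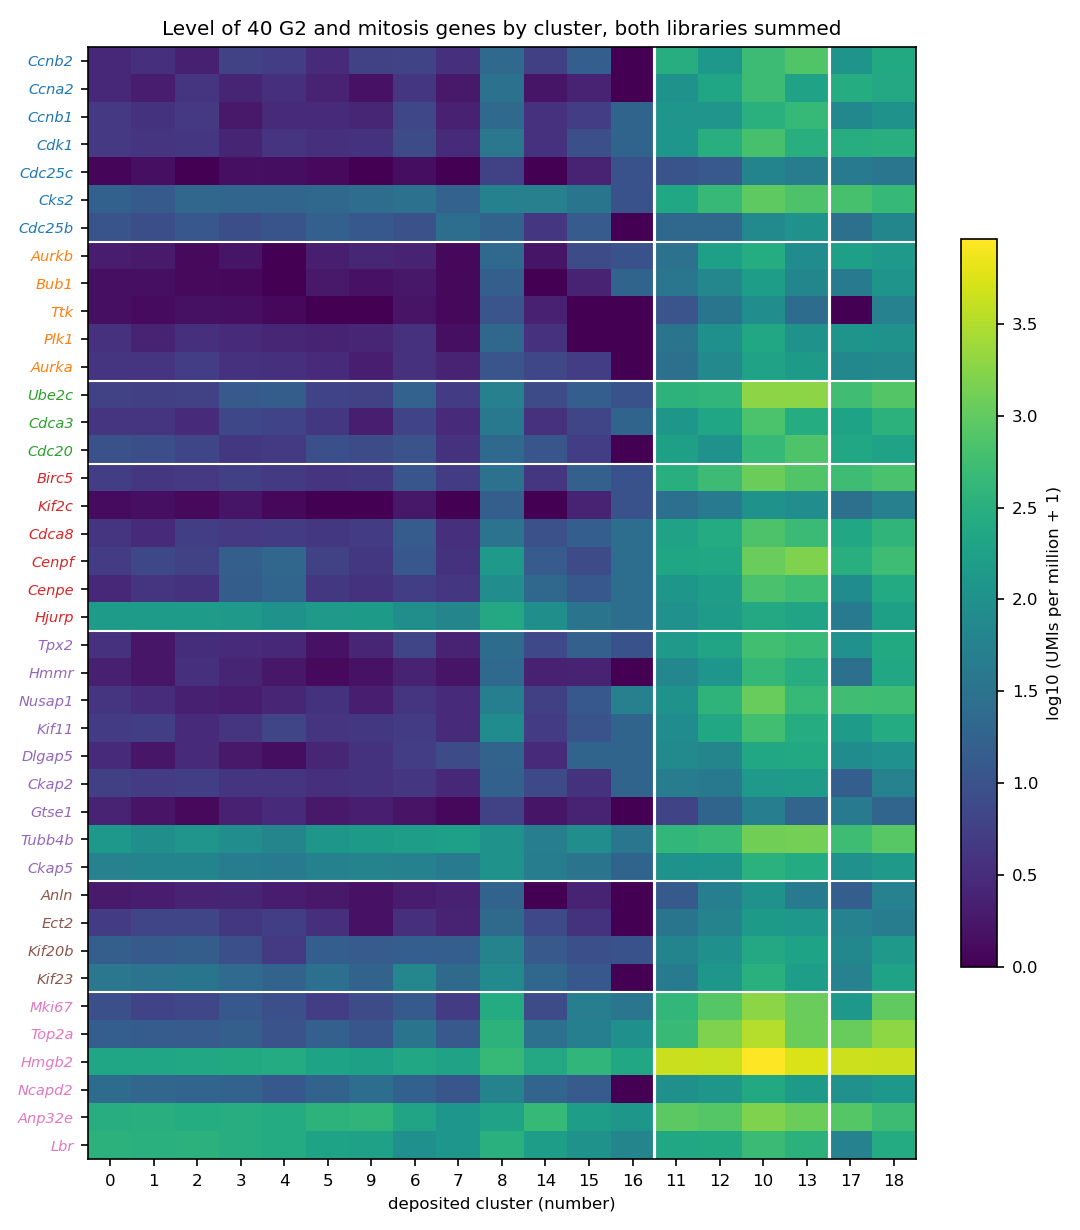
Level of each of the 40 genes (rows, coloured by role) in the 19 deposited clusters (columns), as log10 of CPM plus 1 with both libraries summed; white lines set off clusters 11, 12, 10 and 13. The bright block covers clusters 10 to 13, 17 and 18, with Hmgb2 the brightest at 9121 CPM in cluster 10, while Hjurp, Lbr, Anp32e and Tubb4b are also read outside it.

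Most genes were read almost wholly in clusters 10 to 13. The share of a gene's UMIs found there was highest for Tpx2, which activates Aurora A on spindle microtubules, with 95.4% in WT and 97.1% in KO, for Ccnb2, a B-type cyclin, with 94.9% and 97.3%, and for Ube2c, the ubiquitin-conjugating enzyme of the anaphase-promoting complex, with 95.1% and 97.1%. Their CPM in clusters 10 to 13 was 51, 50 and 49.6 times that in all other clusters together. The share was lowest for Lbr, the lamin B receptor of the inner nuclear membrane, with 43.2% and 37.8%, for Hjurp, the chaperone that loads the centromeric histone CENP-A, with 43.1% and 38.7%, and for Ckap5, a microtubule polymerase, with 66.4% and 63.1%. The ratio of clusters 10 to 13 over the rest was only 1.32 for Lbr and 1.35 for Hjurp, against 3.59 for Ckap5. Over both libraries Hjurp was the single gene highest outside clusters 10 to 13, at 248 CPM in WT and 242 CPM in KO in cluster 8. Its level in cluster 10 was close, at 244 and 239 CPM, and in KO alone it was highest in cluster 18, at 255 CPM. Hjurp was at 106 to 152 CPM in the large clusters 0 to 4, where Top2a was at 9.36 to 14.7 CPM. Lbr was at 272 to 354 CPM in clusters 0 to 4 and at 506 CPM in cluster 10.

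The Cdk1 group centred on clusters 10 and 13. Cdk1, the kinase that drives mitotic entry, was at 625 CPM in WT and 636 CPM in KO in cluster 10, 135 and 109.8 in cluster 11, 299.8 and 300.1 in cluster 12, and 270.4 and 351 in cluster 13. Ccna2, cyclin A2, which acts from S phase to early mitosis, was at 513 and 507.5 CPM in cluster 10, 114 and 95.6 in cluster 11, 215.5 and 225 in cluster 12, and 167 and 208 in cluster 13. Both were at their highest in cluster 10, and both were higher in cluster 12 than in cluster 11. The B-type cyclins, which act at mitotic entry and are destroyed at anaphase, had another order. Ccnb1 was at 325 and 322 CPM in cluster 10, 117 and 113 in cluster 11, 114 and 113 in cluster 12, and 424 and 464 in cluster 13. Ccnb2 was at 541 and 514 CPM in cluster 10, 295 and 283 in cluster 11, 131 and 129 in cluster 12, and 729 and 774 in cluster 13. Cyclin B was thus highest in cluster 13 in both libraries, and Ccnb2 was lower in cluster 12 than in cluster 11. Of the remaining genes of this group, the phosphatase gene Cdc25b was also highest in cluster 13, at 103 and 112 CPM. Over both libraries Cdc25c and the kinase subunit gene Cks2 were highest in cluster 10, but in WT alone both were highest in cluster 17.

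All 5 mitotic kinases were highest in cluster 10 and low in cluster 11. Plk1, polo-like kinase 1, was at 230.1 CPM in WT and 232 CPM in KO in cluster 10, 29.7 and 34.2 in cluster 11, 96.9 and 98.3 in cluster 12, and 84.2 and 124 in cluster 13. Aurka, the kinase of centrosomes and spindle poles, was at 197 and 189.8 CPM in cluster 10, 30.8 and 25.9 in cluster 11, 71.7 and 73.9 in cluster 12, and 132 and 149.9 in cluster 13. Aurkb, the kinase of the chromosomal passenger complex, was at 278 and 279.5 CPM in cluster 10, 29.4 and 29.5 in cluster 11, 163 and 175 in cluster 12, and 81.2 and 85.1 in cluster 13. Aurka was the higher in cluster 13 than in cluster 12 and Aurkb the reverse, in both libraries. Bub1 and Ttk, kinases of the spindle checkpoint, were also highest in cluster 10, at 170.1 and 145.5 CPM and at 84.4 and 86.1 CPM.

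Among the ubiquitin ligase cofactors, Cdc20, which activates the anaphase-promoting complex at anaphase, was at 448.5 CPM in WT and 446 CPM in KO in cluster 10, 185 and 169 in cluster 11, 109 and 104 in cluster 12, and 717 and 772.5 in cluster 13. Ube2c was at 1960.2 and 1849.8 CPM in cluster 10, 375 and 353 in cluster 11, 405.5 and 394 in cluster 12, and 1675 and 2041 in cluster 13, so its highest cluster differed between the libraries. Cdca3, a cofactor in the removal of the Cdk1 inhibitor Wee1, was highest in cluster 10, at 705 and 673 CPM.

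In the centromere and kinetochore group, Cenpe, a kinetochore motor that moves chromosomes to the spindle equator, was at 695 CPM in WT and 655 CPM in KO in cluster 10, 117 and 126 in cluster 11, 164.5 and 169.7 in cluster 12, and 558 and 522 in cluster 13. Cenpf, a large protein of the nuclear matrix and kinetochore, was at 1145 and 1116 CPM in cluster 10, 219 and 204 in cluster 11, 224 and 237 in cluster 12, and 1488 and 1596 in cluster 13. Birc5, survivin of the chromosomal passenger complex, was at 1187 and 1165 CPM in cluster 10, 317 and 298 in cluster 11, 546 and 501.5 in cluster 12, and 742 and 786 in cluster 13. Of these 3 genes only Cenpf peaked in cluster 13. Kif2c, a microtubule depolymerase, and Cdca8, borealin, were highest in cluster 10.

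The spindle group was read at 4774 CPM in WT and 4645 CPM in KO in cluster 10 and at 3400 and 3668 CPM in cluster 13. Tubb4b, a beta-tubulin, was at 1264 and 1255 CPM in cluster 10, 437 and 410.4 in cluster 11, 501 and 449 in cluster 12, and 1211.5 and 1442 in cluster 13. Tpx2 was at 609 and 539 CPM in cluster 10 and at 528 and 426 CPM in cluster 13. Dlgap5, which stabilises kinetochore fibres, and Ckap2, a spindle protein, were highest in cluster 13 over both libraries, at 253 and 259 CPM and at 155.5 and 147 CPM, while Nusap1, a microtubule bundler, was highest in cluster 10, at 1112 and 1107 CPM in cluster 10 against 403 and 502 CPM in cluster 13.

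Over both libraries the 4 cytokinesis genes were highest in cluster 10. Anln, anillin of the cleavage furrow, was at 104.5 CPM in WT and 110.5 CPM in KO there and at 28.7 and 52.3 CPM in cluster 13. Kif23, a motor of the central spindle, was at 326 and 317 CPM in cluster 10 and at 152.5 and 169 CPM in cluster 13. Among the chromatin genes, Top2a, the topoisomerase that untangles sister chromatids, was at 3324 and 3325 CPM in cluster 10, 488 and 470.2 in cluster 11, 1501 and 1589.5 in cluster 12, and 1059 and 1267 in cluster 13. Mki67, which coats mitotic chromosomes, was at 1859 and 1854 CPM in cluster 10, 379 and 437 in cluster 11, 779.6 and 872 in cluster 12, and 1082 and 1168 in cluster 13. Hmgb2 was at 9125 and 9118 CPM in cluster 10, 4408 and 4427 in cluster 11, 4249.6 and 4330.2 in cluster 12, and 5126 and 5812.5 in cluster 13. Cluster 10 was the highest for each of the 3 in both libraries, and of the 3 only Hmgb2 was as high in cluster 11 as in cluster 12.

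Over both libraries, 31 of the 40 genes were highest in cluster 10, 8 in cluster 13 (Ccnb1, Ccnb2, Cdc20, Cdc25b, Cenpf, Ckap2, Dlgap5 and Tubb4b) and 1, Hjurp, in cluster 8. Counted per cell in place of CPM, 0 of the 40 were highest in cluster 13, whose cells held a median of 5466 UMIs in WT and 7032 in KO against 12526 and 14361 in cluster 10. With every cell thinned to 1000 UMIs, 4 of the 40 were highest in cluster 13, namely Ccnb1, Ccnb2, Cdc20 and Cdc25c. Cenpf was then highest in cluster 10 and Cdc25b in cluster 18. The ratio of cluster 13 over cluster 10 was therefore set side by side in the libraries. Its interval lay above 1 in both libraries for 5 genes, Ccnb1, Ccnb2, Cdc20, Cdc25b and Cenpf, and below 1 in both for 27 genes, with 8 genes in neither class. The share of all genes in each class was not taken, so these counts describe the 40 genes alone. Cdc20 had the highest ratio, at 1.60 in WT and 1.73 in KO, and the lowest were Anln, at 0.275 in WT, and Ttk, at 0.268 in KO. Aurkb was at 0.292 and 0.305. Cluster 13 was also set apart by the 40 DNA replication and S phase genes, such as Mcm5, Pcna and Rrm2. Their summed level was 1329 CPM in WT and 1302 CPM in KO in cluster 13, within the range of the 12 clusters low in the G2 and mitosis genes, against 8362 and 8002 CPM in cluster 10, while cluster 11 stood at 9970 and 9222 CPM and cluster 12 at 11812.5 and 11719.5 CPM. The G2 and mitosis genes exceeded the S phase genes by 16.5 times in WT and 18.5 times in KO in cluster 13, by 4.01 and 4.12 times in cluster 10, and by 1.05 to 1.17 times in clusters 11 and 12.

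**Figure D2:**
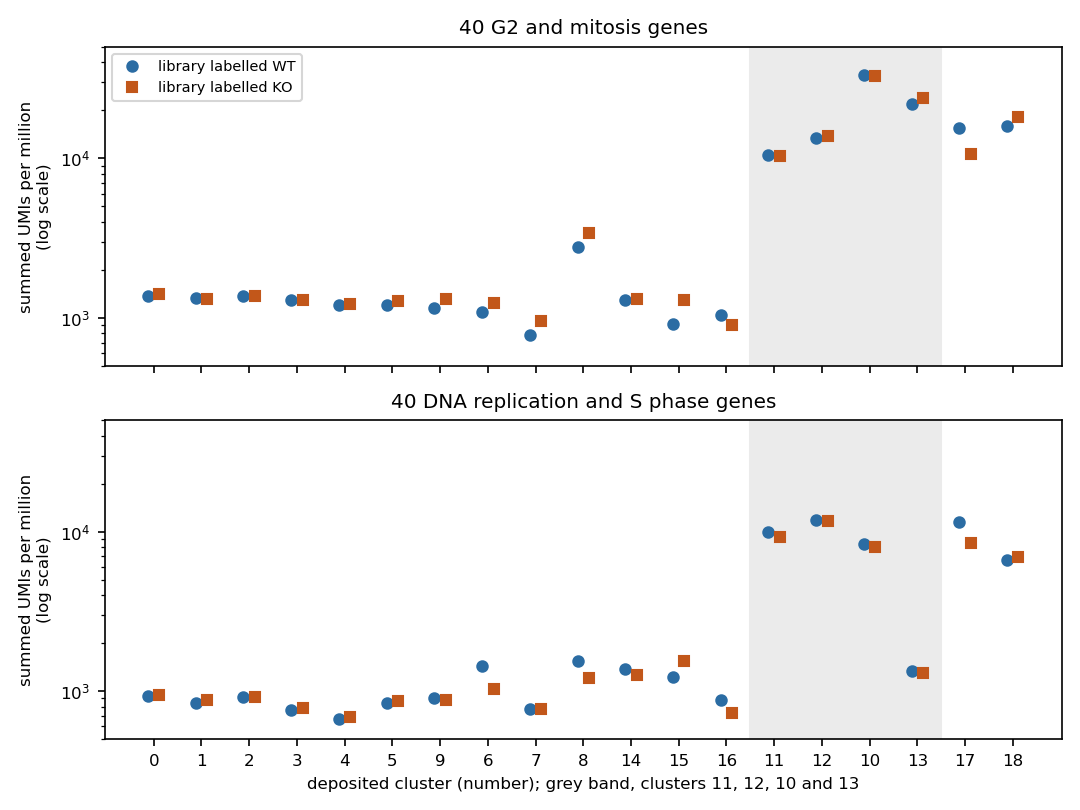
Summed CPM (log scale) of the 40 G2 and mitosis genes (top) and of 40 DNA replication and S phase genes (bottom) in each deposited cluster, with a circle for the WT library and a square for the KO library. Cluster 13 combines a high upper value, 21880 and 24075 CPM, with a low lower value, 1329 and 1302 CPM.

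**Figure D3:**
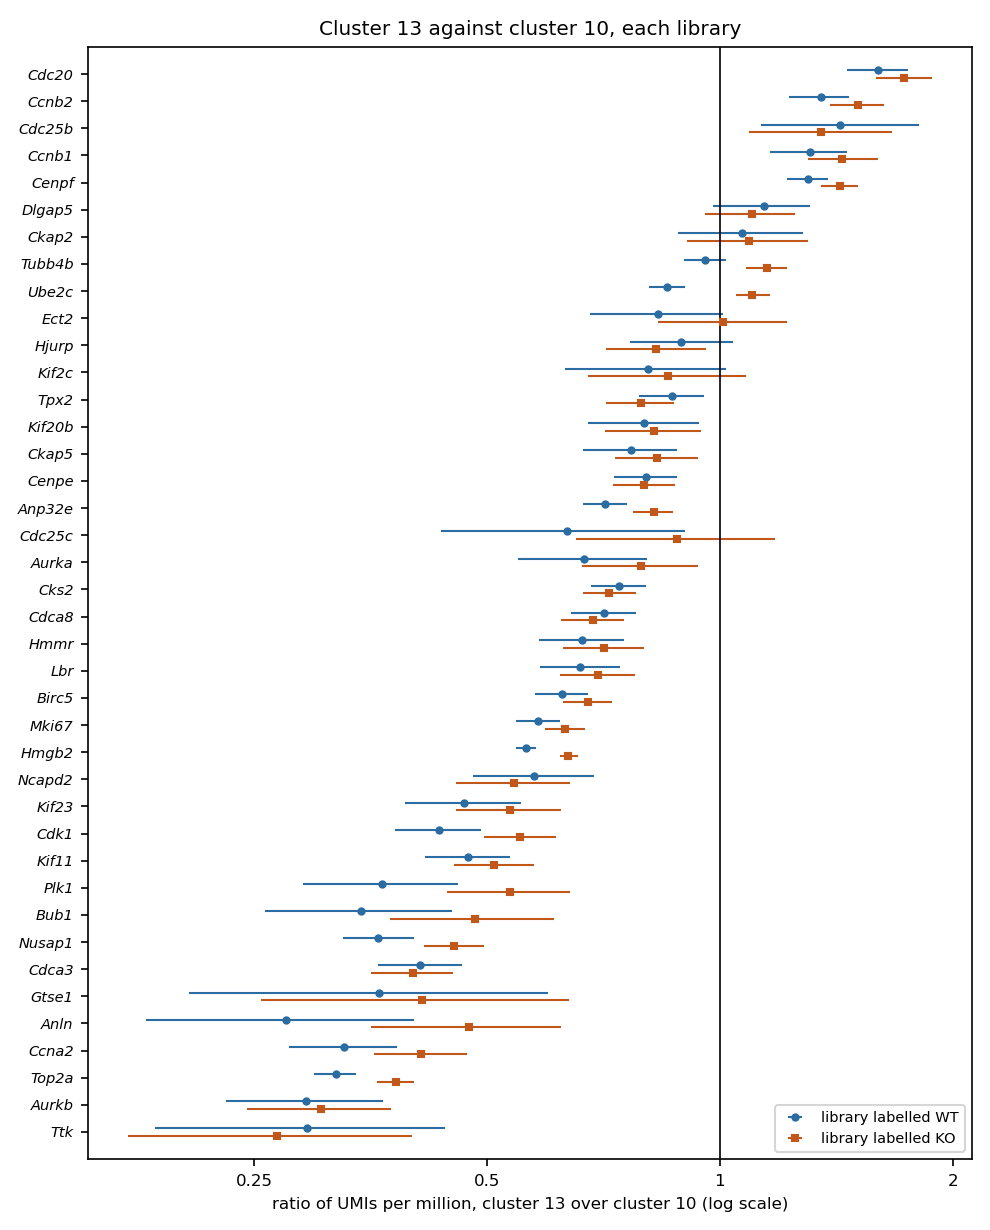
Ratio of the CPM in cluster 13 over cluster 10 for each gene (log scale), with 95% counting intervals, circles for the WT library and squares for the KO library. Cdc20, Ccnb2, Cdc25b, Ccnb1 and Cenpf lie to the right of 1 in both libraries, and Anln in WT, at 0.275, and Ttk in KO, at 0.268, lie farthest to the left.

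To count cells that use these genes at matched depth, each cell with at least 1000 UMIs was thinned to 1000 UMIs and the share with 5 or more UMIs of the 40 genes was taken. The share over all cells was 12.3% of 5879 WT cells (11.4 to 13.1) and 11% of 7348 KO cells (10.3 to 11.7), after 236 and 220 shallower cells were left out. Unthinned, the shares were 45.0% and 49.1%, a reversed order, in libraries whose cells differ in depth. In clusters 0 to 4, which give the background of this count, 0.806% to 2.61% of cells passed. In clusters 10 to 13 the share was 89.2% in WT and 89.4% in KO, and it was 100% of 232 and 231 cells in cluster 10, 81.4% and 81.9% in cluster 11, 97.1% and 96.2% in cluster 12, and 73.4% and 71.8% in cluster 13. Every one of these 4 clusters thus had shares in WT and KO whose intervals overlapped. The clusters were drawn from the same genes and cluster 10 was at 100% in both, so the overlap cannot show that the libraries were alike. Without Hmgb2, Tubb4b, Anp32e, Lbr and Ckap5, which are also read in other clusters, the share over all cells was 8.32% and 7.27%.

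Between the libraries, the 40 genes differed little in clusters 10 to 13. The 40 genes summed to 198359 UMIs, 19842.5 CPM, in WT and 244977 UMIs, 19235 CPM, in KO, a log2 ratio of KO over WT of -0.045 (interval -0.053 to -0.036). The median over genes was -0.06, against 0.04 for all 12365 genes with at least 20 UMIs in these cells. A log2 ratio of 0.5 or more in either direction was reached by 0 of the 40 genes, where 7.32% of all genes reached it as higher in KO and 3.70% as lower in KO. With every cell thinned to 1000 UMIs, 4 of the 40 were at -0.5 or less and 0 at 0.5 or more, where 7.95% and 11.6% of all genes were. These were Cdc25b, with 45 UMIs in WT and 30 in KO after thinning, Cdc25c, with 29 and 18, Bub1, with 66 and 43, and Ckap2, with 74 and 44. Under the other settings tried it was 0 of 40 in both directions. Of the 40 unthinned ratios 11 were above 0 and 29 below. The counting interval lay above 0 for 2 genes, against 11.1% of all genes, and below 0 for 15 genes, against 6.62% of all genes, with none of these below -0.18. These genes are among the most deeply read, and intervals this narrow leave out the differences between mice, so no difference between the genotypes can be drawn from them.

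The lowest ratios were those of spindle genes. Tpx2 had 3456 UMIs in WT (346 CPM) and 3877 UMIs in KO (304 CPM), a log2 ratio of -0.18 (-0.25 to -0.12). Hmmr, a receptor for hyaluronan that also binds spindle microtubules, had 2311 and 2601 UMIs (231 and 204 CPM) and a ratio of -0.18 (-0.26 to -0.097), and Ckap2 had 879 and 992 UMIs (87.9 and 77.9 CPM) and a ratio of -0.18 (-0.31 to -0.042). Over the 9 spindle genes 7 were below 0, 5 of them with the interval below 0. Their summed ratio was -0.081, but within clusters 10, 11, 12 and 13 it was -0.039, -0.058, -0.002 and 0.11. The highest ratios were those of Anln, with 523 and 749 UMIs (52.3 and 58.8 CPM) and 0.17 (0.0057 to 0.33), of Cdc25b, with 433 and 613 UMIs (43.3 and 48.1 CPM) and 0.15 (-0.028 to 0.33), and of Kif20b, a motor of the midbody, with 1329 and 1874 UMIs (133 and 147 CPM) and 0.15 (0.044 to 0.25). Anln and Kif20b were the 2 genes whose interval lay above 0. By group, the 3 ubiquitin ligase cofactors lay between -0.12 and -0.1, all with the interval below 0, but Cdc20 was at 0.21 with thinned cells and at 0.0695 without the deepest 5% of cells, and Ube2c at 0.0392 without those cells. The 6 kinetochore genes lay between -0.14 and -0.0083. The 5 mitotic kinases lay between -0.13 and 0.025, with 0 intervals off 0, and the 7 genes of the Cdk1 group between -0.12 and 0.15. Top2a and Mki67, the most used markers of dividing cells, were at 1748 and 1743 CPM and at 1039 and 1057 CPM, with ratios of -0.0038 (-0.032 to 0.025) and 0.025 (-0.012 to 0.062).

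**Figure D4:**
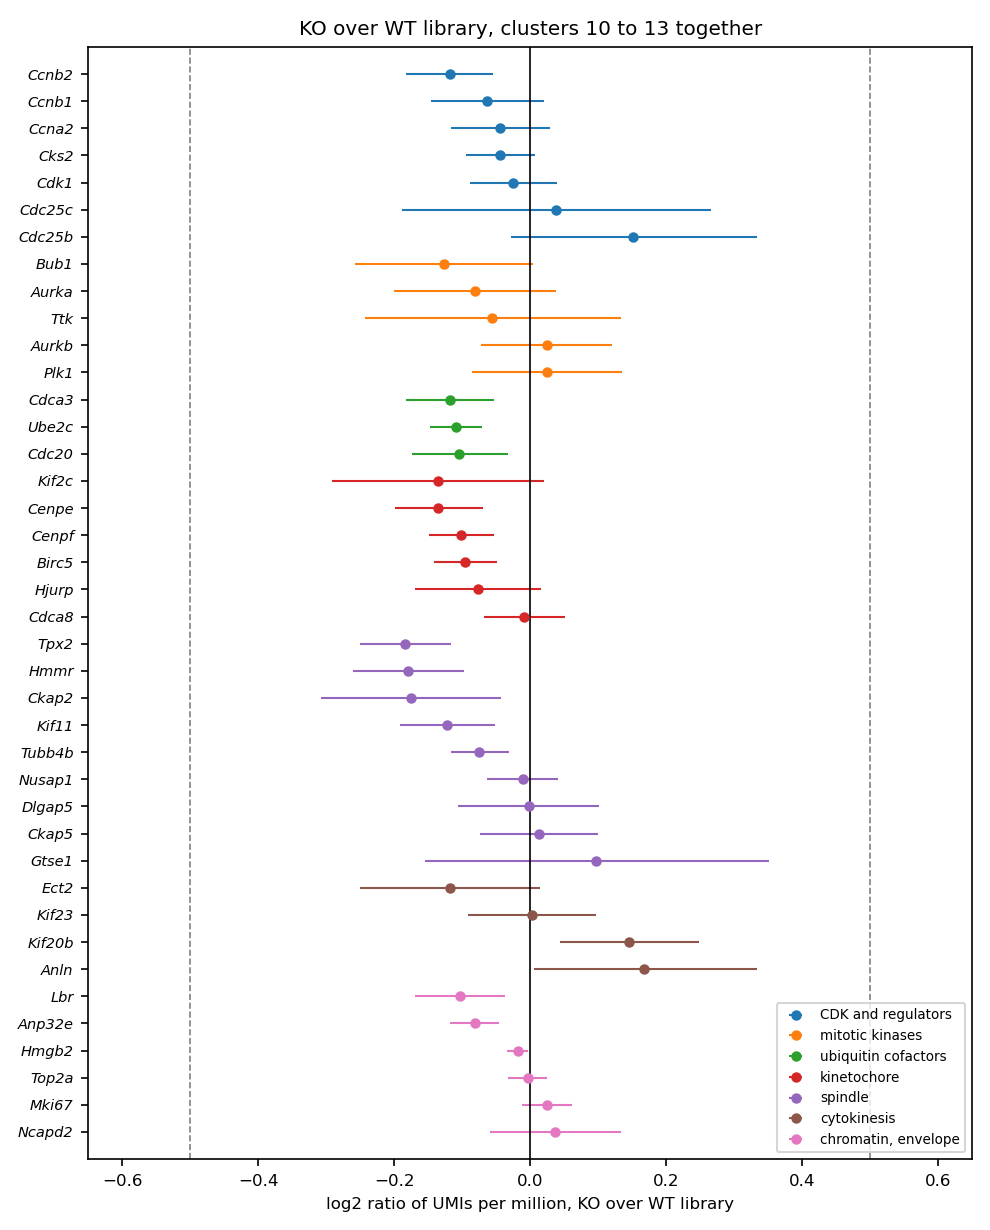
Log2 ratio of CPM, KO over WT library, for each gene over the cells of clusters 10 to 13, with 95% counting intervals and colours for the roles; dashed lines mark 0.5 and -0.5. All 40 points lie between -0.18 and 0.17, inside the dashed lines, whereas with cells thinned to 1000 UMIs 4 of the 40 genes were at -0.5 or less.

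Within single clusters the median ratio was -0.01 in cluster 10, -0.02 in cluster 11, 0.04 in cluster 12 and 0.1 in cluster 13, beside 0.04, 0.04, 0.03 and 0.05 for all genes tested there. The summed ratio of the 40 genes was -0.022, -0.015, 0.032 and 0.138, each above the -0.045 of the 4 clusters together. Cluster 10, with the highest level, held 3.79% of WT and 3.05% of KO cells. The part of this mix of clusters in the ratios over clusters 10 to 13 was not tested. In cluster 10, 0 of 40 genes were past 0.5 or -0.5, where 8.91% of all genes were higher and 4.21% lower, and in cluster 12 it was again 0 of 40, where 8.22% were higher and 5.28% lower. In cluster 11 the only gene past 0.5 was Cdc25b, with 46 UMIs in WT and 90 in KO and a ratio of 0.63 (0.11 to 1.18), where 9.85% of all genes were higher. In cluster 13 the genes past 0.5 were Anln, with 29 and 59 UMIs and 0.85 (0.2 to 1.56), and Plk1, with 85 and 140 UMIs and 0.56 (0.16 to 0.97), where 11.9% of all genes were higher. None was past -0.5 in clusters 11 and 13, where 4.86% and 6.80% of all genes were, and the lowest in cluster 13 was Tpx2, with 533 and 480 UMIs and -0.31 (-0.49 to -0.13). Unthinned, the counts of genes past the fold were thus below the background in each of the 4 clusters. The 40 genes are among the most deeply read, so this does not set them apart from other genes. With cells thinned to 1000 UMIs, 3 to 6 genes were at -0.5 or less in these clusters, beside 11% to 11.7% of all genes. Only genes left with at least 20 UMIs after thinning were counted, so the base of these counts was below 40 where low genes dropped out. The counts at 0.5 or more after thinning are not given here. Cdc42 was lower in KO in each of the 4, with ratios from -0.29 to -0.2, but not in every cluster. It was at 397 and 383 CPM in cluster 6, a ratio of -0.05 (-0.19 to 0.08), where the median of all genes was 0.16. In cluster 7 it was higher in KO, at 447 and 581.5 CPM, 0.38 (0.26 to 0.50), where the median of all genes was 0.24.

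Outside clusters 10 to 13 the ratios depended on 1 small cluster. Over all cells outside, the median of the 40 ratios was -0.51, and 21 of the 40 were at -0.5 or less, where 5.64% of all genes were, with 0 at 0.5 or more, where 9.04% were. Scaled by TMM factors it was 23 and 0, where 7.26% and 6.97% of all genes were. Cluster 18 held 24 WT cells (0.392%, 0.252 to 0.583) and 8 KO cells (0.106%, 0.0456 to 0.208) but 7039 and 2550 UMIs of the 40 genes, with a median of 226 per WT cell and 310 per KO cell against 0 to 12 in the clusters other than 10 to 13, 17 and 18. Without cluster 18 the median became 0.19, and 1 gene, Anln, was at -0.5 or less, where 5.06% of all genes were, while 6 were at 0.5 or more, where 8.92% of all genes were. Without clusters 17 and 18 it was 1 of 39 at -0.5 or less and 8 at 0.5 or more, where 5.02% and 8.93% of all genes were. Top2a went from 1254 and 964 UMIs and -0.73 with cluster 18 to 435 and 648 UMIs and 0.20 without it, and Hmmr, the lowest with the cluster at 129 and 70 UMIs and -1.23 (-1.68 to -0.81), went to 25 and 43 UMIs and 0.39 (-0.34 to 1.18). Cluster 18 was unlike clusters 10 to 13 in its markers: the 8 single-positive markers, among them Ms4a4b, Klf2 and Ccr7, summed to 2878 CPM in WT and 4045.5 CPM in KO, against 157 and 191 CPM in clusters 10 to 13, and the 8 DP markers to 1154 and 1204 CPM. Of the defining markers of other cells, all 8 macrophage markers, all 5 erythroid markers measured and 6 of 8 dendritic cell markers were at 0 there, while 4 of 8 B cell markers were at 0 and the list summed to 236 and 198 CPM, and 3 of 7 thymic epithelial markers measured were at 0 and the list summed to 31.8 and 56.7 CPM. In clusters 10 to 13 these lists summed to 414 and 463 CPM and to 35.8 and 46.1 CPM. The part of such RNA in the ratios was not tested. Within cluster 18 the 40 genes were at 15986 CPM in WT and 18067 CPM in KO, with a median ratio of 0.2 over 39 genes. The WT library thus had more of these cells, and the summed CPM of the 40 genes within them was not lower in KO. Of the 39 ratios 26 were above 0 and 13 below, among the latter Ccnb2 at -0.68 (-1.4 to -0.064). The KO level rested on 8 cells. Without Hmgb2, Tubb4b, Anp32e, Lbr and Ckap5, 2 of these 8 held 41.4% of 1601 UMIs.

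**Figure D5:**
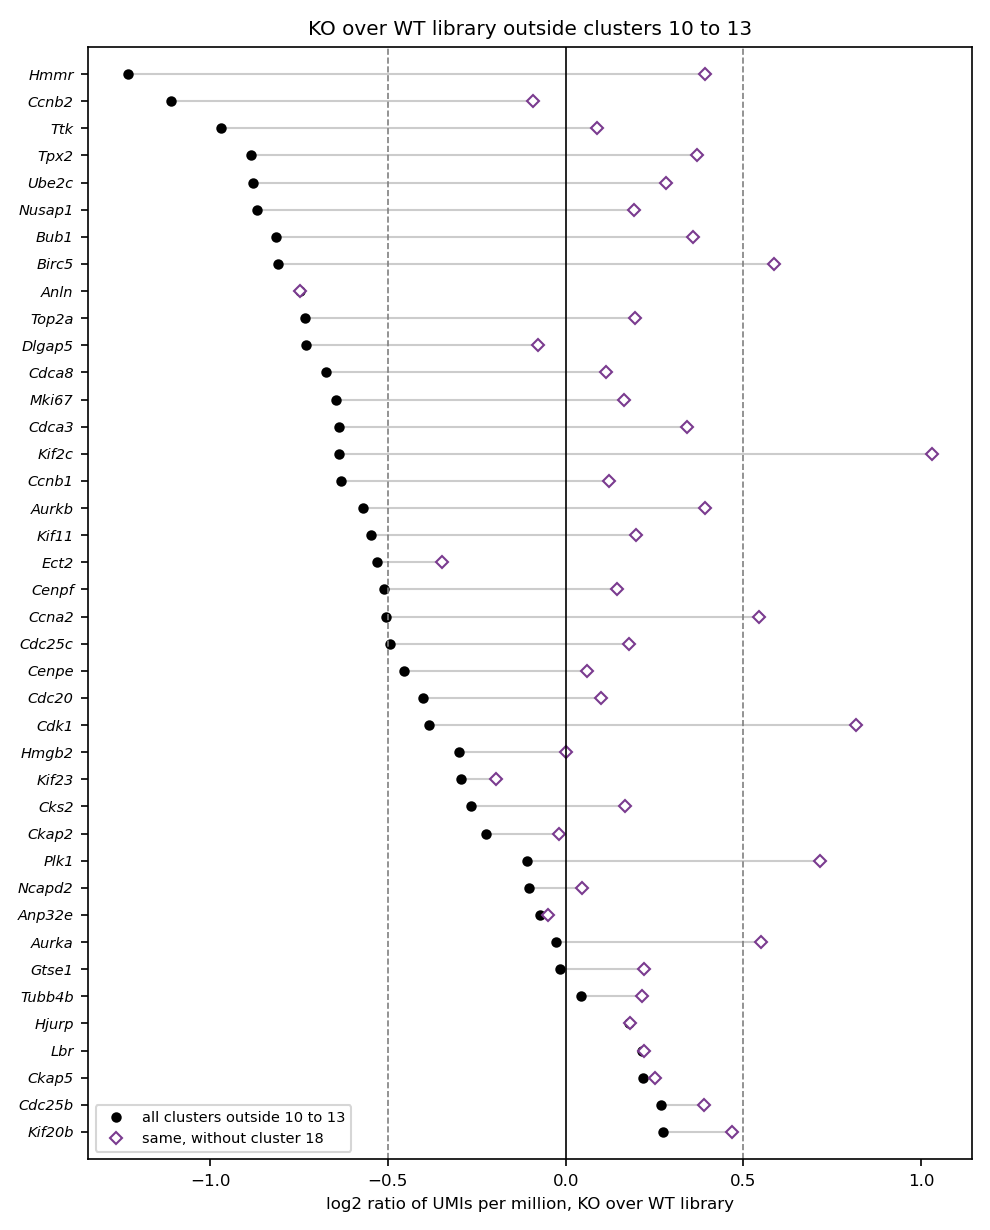
Log2 ratio of CPM, KO over WT library, for each gene over all cells outside clusters 10 to 13 (filled circles) and over the same cells without cluster 18 (open diamonds); dashed lines mark 0.5 and -0.5. Most genes move from the left to the right of 0 when the 32 cells of cluster 18 are left out. Without them 7 genes lie to the left of 0, Anln the farthest.

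In clusters 6 and 8 a few cells held a large part of the UMIs. In cluster 6, after Hmgb2, Tubb4b, Anp32e, Lbr and Ckap5 were set aside, 2 of 316 KO cells held 196 and 139 of 892 UMIs, 37.6% of the total, against 62 and 55 of 1062 UMIs for the top cells of 479 WT cells, and there 9 of 26 genes with enough UMIs were at 0.5 or more, where 15.8% of all genes were, and 1 was at -0.5 or less, where 6.68% were. In cluster 8, 1 of 366 KO cells held 268 of 1085 UMIs of the same 35 genes. The top 2 cells there held 32.3% of these UMIs in KO, and the top 2 of 250 WT cells held 20.5% of 521. In cluster 8, 10 of 22 genes were at 0.5 or more and 0 at -0.5 or less, where 19.4% and 11.2% of all genes were. The part of these few cells in the ratios of clusters 6 and 8 was not tested. The S phase genes had a median ratio of -0.5 over 36 genes in cluster 6, where the median of all genes was 0.16. Of the 36, 18 were at -0.5 or less, where 6.68% of all genes were, and 0 at 0.5 or more, where 15.8% were. Whether a few cells carried the S phase genes was not tested.

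Cluster 7, in which the single-positive markers summed to 3497 CPM in WT and 5104 CPM in KO, differed from clusters 6 and 8 in that its top 2 cells held only 6.32% of 506 UMIs in WT and 2.69% of 483 UMIs in KO. Of 13 genes with at least 20 UMIs there, 4 were at 0.5 or more and 4 at -0.5 or less, where 27.0% and 7.03% of all genes were. Cdc25b had the highest ratio, with 17 UMIs in WT (7.3 CPM) and 101 UMIs in KO (44.6 CPM), 2.57 (1.86 to 3.44). Over the genes left after Hmgb2, Tubb4b, Anp32e, Lbr and Ckap5 were set aside, Cdc25b among them, no KO cell there held more than 7 UMIs. Tubb4b had the next highest ratio, with 267 and 525 UMIs (115 and 232 CPM) and 1.01 (0.80 to 1.23), and Lbr and Ckap5 were at 0.55 (0.30 to 0.80) and 0.53 (0.11 to 0.95). The lowest was Top2a, with 38 and 16 UMIs and -1.18 (-2.15 to -0.33), ahead of Dlgap5, Kif23 and Cks2. A gene needed 20 UMIs in cluster 7 to be counted, so genes read outside clusters 10 to 13 were favoured on both sides of 0. Among such genes Kif23 was at -0.79 and Hjurp at 0.07. The median depth in cluster 7 was 6737.5 UMIs in WT and 5032 in KO, the all-gene median ratio was 0.24, and the part of either in these ratios was not tested.

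With clusters 0 to 4 summed, the 35 genes with at least 20 UMIs had a median ratio of 0.11, beside 0.05 for all genes, with 4 at 0.5 or more and 2 at -0.5 or less, where 7.44% and 3.08% of all genes were. In clusters 0 to 4 the 40 genes summed to a log2 ratio of 0.0088 (-0.022 to 0.04).

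Other gene lists gave the setting of these ratios in clusters 10 to 13. The 40 S phase genes had a median ratio of -0.01, with 0 past 0.5 or -0.5. Of 60 other G2 and mitosis genes, with a median of -0.07, 0 were at -0.5 or less and 1 was at 0.5 or more. The lowest were Ncapd3, a subunit of condensin II, with 2150 UMIs in WT and 2361 in KO and a ratio of -0.21 (-0.3 to -0.13), and Depdc1a, with 615 and 678 UMIs and -0.21 (-0.37 to -0.049). Behind the highest came Sapcd2, a regulator of spindle orientation, with 119 and 199 UMIs and 0.39 (0.058 to 0.73). The exception was Pttg1, securin, which holds separase inactive until the anaphase-promoting complex destroys it. Pttg1 had 226 UMIs in WT (22.6 CPM) and 1280 UMIs in KO (100.5 CPM), a ratio of 2.15 (1.95 to 2.36), while its partner in that step, Cdc20, was at 300.5 and 279.7 CPM.

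The difference in Pttg1 lay in clusters 10 to 13 and 18. In WT it was at 18.5 CPM in cluster 10, 19.9 in cluster 11, 17.7 in cluster 12 and 57.5 in cluster 13, and in KO at 158, 77.9, 35.8 and 235 CPM. In clusters 0 to 4 it was at 26.6 to 40.6 CPM in WT and 24.7 to 32.6 CPM in KO, so in the WT library Pttg1 in cluster 10 stood below its level in clusters 0 to 4 although the 40 genes stood at their highest there. The ratio was 3.08 in cluster 10 (2.71 to 3.51), 1.96 in cluster 11 (1.55 to 2.4), 1.01 in cluster 12 (0.56 to 1.5) and 2.02 in cluster 13 (1.62 to 2.47), and its interval lay above 0 in 5 of the 17 clusters with at least 20 Pttg1 UMIs, the fifth being cluster 18. In clusters 0 and 6 the interval lay below 0, with ratios of -0.45 (-0.84 to -0.051) and -0.84 (-1.5 to -0.24). The UMIs in clusters 10 to 13 came from 173 of 686 WT cells and 408 of 737 KO cells, with at most 6 and 15 in 1 cell, so no single cell carried them. Among the 9260 genes with at least 100 UMIs in these cells Pttg1 ranked the seventh by ratio, and 0 of the 40 G2 and mitosis genes were past 0.5 or -0.5 in the same unthinned cells, and none was at 0.5 or more after thinning. The cause was not tested, and with 1 library of pooled mice per group genotype, mice and preparation cannot be told apart.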

How the data were processed

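Thymocytes of WT and KO mice were profiled as 1 pooled 10x Genomics 3′ library each. The authors deposited a matrix of UMI counts, whole and not normalized, with cell metadata. The submitters' processing notes name Cell Ranger 3.0.2, STAR, Seurat and mm10, and the annotation is not given in the sources used here. Per the methods, cells with under 200 or over 6000 genes or over 50000 reads were removed, and 13683 cells remain in the matrix, fewer than the study states. A deposited column for mitochondrial content holds only 0 and was left aside. Doublet removal by the authors is not stated.

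Counts were summed per library and cluster and given as CPM. Log2 ratios of KO over WT used 0.5 added to each sum and genes with at least 20 UMIs, with exact conditional binomial intervals. Shares have Clopper-Pearson and levels Poisson intervals. A log2 ratio of 0.5 served as the fold, and the ratio code was checked on simulated counts. Named were 16 core genes, the 3 highest and 3 lowest by ratio (at least 100 UMIs) and by share in clusters 10 to 13, the genes nearest the minimum, and the 2 highest and 2 lowest of 60 related genes; others were chosen after their values were seen. Members and lists were chosen with earlier results of these data known. Alternatives used edgeR 4.0.16 and DESeq2 1.42.0 factors only to scale, and scanpy 1.11.5 doublet scores. Its automatic threshold marked 2 WT and 0 KO cells and did not work, so doublets stayed in, and the 6% with the highest scores were left out as an alternative. Motif letters were searched in RefSeq promoter windows. Python 3.11.15 and SciPy 1.17.1 were used.

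Exons of GENCODE M21 genes overlap an exon of 10 of the 40 genes on the opposite strand and 4 on the same strand, and how the authors counted such reads is not stated.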

Additional observations from a re-analysis of the deposited data

Results flagged for a closer look

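The median log2 ratio of KO over WT of the 40 genes had opposite signs between clusters, being below 0 in clusters 10 and 11 and above 0 in clusters 12 and 13. Cluster 12 exceeded cluster 10 by 0.055 and cluster 11 by 0.063, and cluster 13 exceeded cluster 10 by 0.12 and cluster 11 by 0.12 on the log2 scale. These differences were not tested, since each cluster has 1 library per group.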

How the results depend on the processing

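No paired analysis was possible because each group is 1 pooled library. Of 173 summary values recomputed under other settings 139 stayed within their interval or 1.5 times, 31 moved and 3 reversed, and of 520 ratios of single genes in clusters 10 to 13, 472 stayed within their counting interval. Results outside clusters 10 to 13 were added after the data were seen. Scaling by TMM or DESeq2 factors lowered ratios in clusters 10 to 13 by about 0.03 and left 0 of 40 past the fold.

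With cells thinned to 1000 UMIs, 4 of the 40 were at -0.5 or less in clusters 10 to 13 (all genes 7.95%), the all-cell median of -0.066 became -0.19 (-0.19 also as a mean over cells, -0.28 without the deepest 5% of cells), and outside these clusters the median became -0.095, with 2 of 35 higher and 4 lower past the fold (all genes 8.18% and 4.01%). Outside, the mean over cells left 7 of 40 lower (5.57%). Leaving out the deepest 5% of cells gave a median of 0.0401 and 1 lower (4.94%). Without cluster 18 it was 0.19, with 6 higher and 1 lower, and without clusters 17 and 18 it was 0.22, with 8 higher and 1 lower.

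Without the deepest 5%, clusters 10 to 13 held 7.33% of WT and 5.35% of KO cells and 78.8% and 73.2% of the UMIs of the 40 genes. That UMI share was 86.9% and 87.6% without cells over 10% mitochondrial UMIs and 87.2% and 88.3% without the top doublet scores. The share of cells using the genes was 24.6% and 22.8% at 3 UMIs, 9% and 7.69% at 10 UMIs, 23.3% and 22.1% at 2000 UMIs and 8.32% and 7.27% without 5 broadly read genes. Highest in cluster 13 were 0 genes per cell and 4 after thinning.

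A single gene was called reversed when its counting interval lay off 0 and its sign changed. As means over cells these were Tubb4b (0.0079) and Hmgb2 (0.0071). After thinning they were Cdc20 (0.21), Cenpf (0.032), Tubb4b (0.12) and Hmgb2 (0.026). Without the deepest 5% they were Cdc20 (0.0695), Ube2c (0.039), Cenpf (0.057), Tubb4b (0.077) and Hmgb2 (0.033). Genes whose interval held 0 were not counted as reversed. Among them, after thinning, Cdc25b went from 0.15 to -0.68 and Cdc25c from 0.038 to -0.775. The causes were not tested.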
